A study of Mus musculus with 12 samples.

Results

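The genes described here make cholesterol from acetyl-CoA, control that synthesis, and move sterols within and out of cells. They were taken as a list of 33 named genes, matched by symbol to the array's probesets. Of these, 30 had a probeset that names 1 gene, among 19938 genes measured. Acat2, Soat1 and Soat2 had none and were not analysed here. The study set 6 Ppara-/- livers against 6 Ppara+/+ livers. Ppara-/- fetuses lack the nuclear receptor PPARα in every cell of the body, and Ppara+/+ fetuses were their wild-type counterparts. Both came from crosses of heterozygous parents, were delivered by cesarean section at E19.5, the last day of pregnancy. The labels give the strain as SV129, while the study's methods describe another background. According to those methods the livers of a genotype came from 3 litters, so some of the 6 livers shared one, and the p-values below do not allow for that.

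Cholesterol synthesis begins with acetyl-CoA, passes through mevalonate and isoprenoid units to squalene, and ends with a series of changes to the sterol ring. SREBP2, the transcription factor made from Srebf2, raises the transcription of these enzymes when sterols in the endoplasmic reticulum are scarce, while liver X receptors raise the transcription of cholesterol exporters when oxysterols are plentiful. PPARα is best known in liver for the transcription of fatty acid oxidation genes, and the question here was whether the sterol genes differed without it just before birth.

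Signals are RMA values on the log2 scale, so a difference of 1 is a doubling, and a gene is called where limma's p, adjusted over all genes, was under 0.05. Whole livers were hybridized, in which fewer cells of a type and less RNA per cell cannot be told apart. Ppara itself averaged 9.83 ± 0.09 in Ppara-/- livers and 10.84 ± 0.10 in Ppara+/+ livers (SD, n = 6 each), and no liver went against its label. Array medians lay between 6.71 and 6.75. The 8 hepatocyte markers measured had none called, with a mean signal of 13.31 to 13.34 in Ppara-/- livers and 13.29 to 13.35 in Ppara+/+ livers. These signals lay near the highest value on the arrays, 13.91, so they do not show that hepatocyte content was equal. Signals of Xist and of 3 Y-linked genes gave 5 female fetuses and 1 male fetus (mouse 2) for Ppara-/-, and 3 of each sex for Ppara+/+. The labels also carry an animal number for each fetus, and the genotypes were unevenly spread over it, with 2 Ppara-/- and 4 Ppara+/+ livers among the 6 lowest numbers. On the first principal component of all genes, which held 41.9% of the variance, Ppara-/- mouse 1 lay at -1.9, apart from the other Ppara-/- livers at 9.8 to 20.9, and Ppara+/+ mouse 6 lay at 3.3, above the other Ppara+/+ livers at -21.1 to -5.2. Where leaving out 1 of these 2 livers changed a call, the value without it is given with the gene.

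The differences of the sterol genes were small, though at the median larger in size than those of all genes. Of the 30 measured, 3 were called higher in Ppara-/- livers and 0 lower. Over all genes, 3.42% were called higher and 3.82% lower. The 3 that rose were Scap, Npc1 and Abca1, and none of them makes cholesterol. The differences of the 30 genes ran from -0.26 to 0.27 with a median of 0.03, against a median of 0.01 over all genes, and the furthest of them amounted to 1.21-fold. The median size of the difference, regardless of sign, was 0.14 for the 30 genes and 0.07 for all genes. Without adjustment, 12 of the 30 had a limma p under 0.05, of which 4 were lower and 8 higher in Ppara-/- livers. That is 40.0% of the sterol genes, against 20.9% of all genes. The sterol genes were brighter than most, and 29 of the 30 remained with the dimmest 50% of genes left out. In that fit 12 of the 29 had an unadjusted limma p under 0.05, against 3450 of the 9969 genes kept. The sizes of difference above were not matched for signal. For 20 of the 30 (66.7%) the 95% interval of the difference lay within 1.3-fold in either direction (0.38 on the log2 scale), as it did for 89.9% of all genes.

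**Figure D1:**
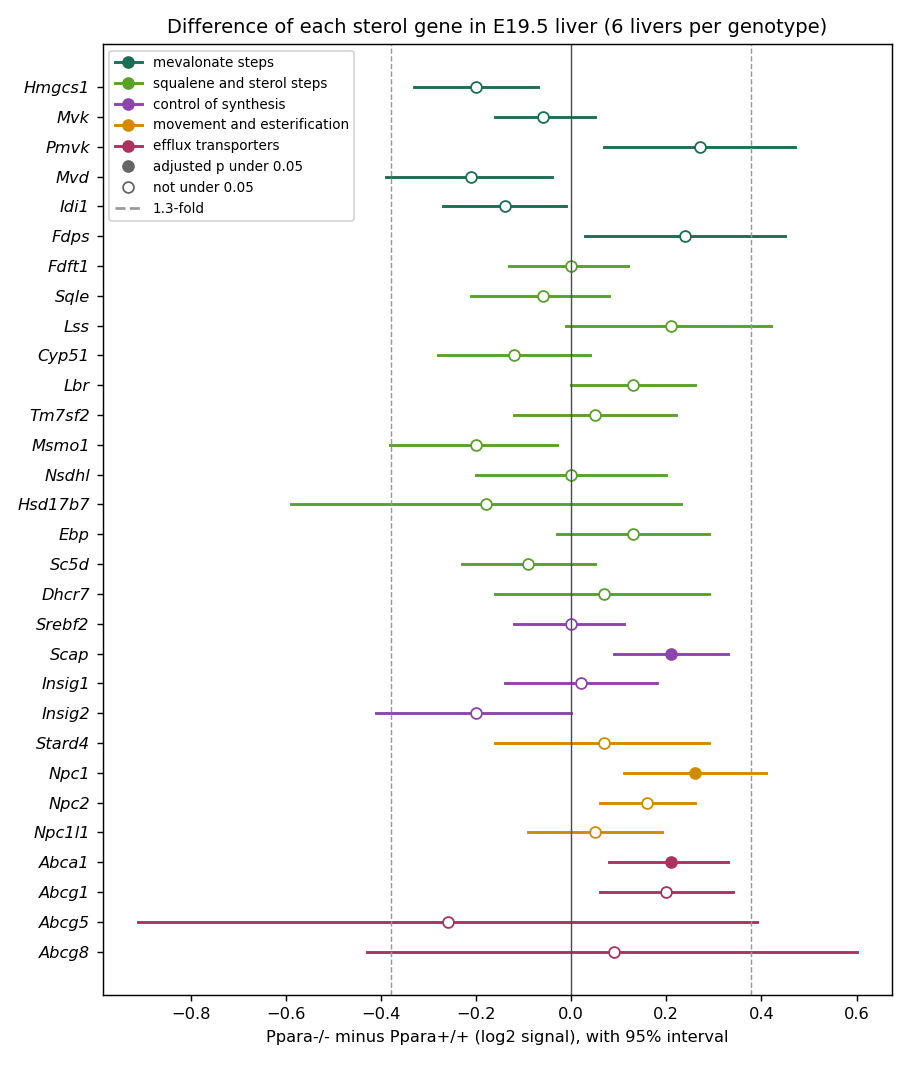
Difference between 6 Ppara-/- and 6 Ppara+/+ livers (log2 signal, x axis) for the 30 sterol genes (y axis, coloured by role). Points are limma estimates, lines 95% intervals, filled points genes called at an adjusted p under 0.05, and dashed lines 1.3-fold. Filled points are Scap, Npc1 and Abca1, and the intervals of Abcg5, Abcg8 and Hsd17b7 are the widest.

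The first group, 6 enzymes from acetoacetyl-CoA to farnesyl diphosphate, had no member called, and 5 of the 6 had an unadjusted limma p under 0.05, in opposite directions. Hmgcs1, which condenses acetyl-CoA with acetoacetyl-CoA, had a lowest, median and highest signal of 10.69, 10.98 and 11.02 in Ppara-/- livers, against 11.02, 11.15 and 11.27 in Ppara+/+ livers. Every Ppara-/- liver lay below every Ppara+/+ liver, although the nearest livers of the genotypes were equal after rounding. Hmgcs1 was the one sterol gene whose groups did not overlap, and in 2.29% of all genes every Ppara-/- liver lay below every Ppara+/+ liver. Means were 10.93 ± 0.12 in Ppara-/- livers and 11.13 ± 0.09 in Ppara+/+ livers (SD, n = 6 each), a difference of -0.20 with a 95% interval of -0.33 to -0.07. The gene was not called (limma adjusted p = 0.067), and Ppara-/- mouse 1, at 10.69, stood below the next liver at 10.92. Without that mouse the difference was -0.15 and not called, and without Ppara+/+ mouse 6 it was -0.22 and called (limma adjusted p = 0.044). Hmgcs1 was also called lower under the 2 filters on dim genes, with an intensity trend and robust variances, and with array weights.

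Mvk phosphorylates mevalonate and Pmvk adds the second phosphate. Mvk differed by -0.06 (95% interval -0.16 to 0.05), with signals of 8.30 to 8.53 in Ppara-/- livers and 8.43 to 8.55 in Ppara+/+ livers. Pmvk had a lowest, median and highest signal of 7.76, 8.13 and 8.42 in Ppara-/- livers, against 7.69, 7.89 and 7.99 in Ppara+/+ livers. In 5 of the 6 Ppara-/- livers, all but mouse 1, Pmvk lay above every Ppara+/+ liver. Its difference of 0.27 was not called (interval 0.07 to 0.47, limma adjusted p = 0.097), and was 0.34 and called without mouse 1 (limma adjusted p = 0.0081). Mvd, which removes a carboxyl group to give isopentenyl diphosphate, ran the other way, with 7.71, 7.89 and 8.12 in Ppara-/- livers, against 7.97, 8.07 and 8.34 in Ppara+/+ livers, a difference of -0.21 (interval -0.39 to -0.04, limma adjusted p = 0.13).

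Idi1 interconverts the isoprenoid units. It had 9.75, 9.88 and 9.93 in Ppara-/- livers, against 9.82, 10.01 and 10.15 in Ppara+/+ livers (difference -0.14, interval -0.27 to -0.01, limma adjusted p = 0.21). A further probeset of Idi1 gave -0.15. Fdps joins these units into farnesyl diphosphate, and had 10.72, 11.18 and 11.24 in Ppara-/- livers, against 10.64, 10.87 and 11.14 in Ppara+/+ livers. As with Pmvk, 5 Ppara-/- livers lay above all Ppara+/+ livers and mouse 1 lay among them. The difference of Fdps was 0.24 (interval 0.03 to 0.45, limma adjusted p = 0.17), and 0.32 and called without mouse 1 (limma adjusted p = 0.017).

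The second group, 12 enzymes that act between farnesyl diphosphate and cholesterol, had no member called either. Fdft1, squalene synthase, averaged 11.85 in both genotypes, with an interval of -0.13 to 0.12. Sqle, the squalene epoxidase, differed by -0.06 (interval -0.21 to 0.08), with signals of 10.13 to 10.48 in Ppara-/- livers and 10.24 to 10.56 in Ppara+/+ livers. Lss, which closes the sterol ring to form lanosterol, had 10.53, 11.11 and 11.19 in Ppara-/- livers, against 10.64, 10.85 and 10.95 in Ppara+/+ livers. Again 5 Ppara-/- livers stood above all Ppara+/+ livers, and mouse 1 stood below all of them. The difference of Lss was 0.21 (interval -0.01 to 0.42, limma adjusted p = 0.26), and 0.30 and called without mouse 1 (limma adjusted p = 0.0051).

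Lanosterol is demethylated by Cyp51 and by the Msmo1 and Nsdhl enzymes, with Hsd17b7 acting on the resulting ketone. Cyp51 differed by -0.12 (interval -0.28 to 0.04). Msmo1 had 10.35, 10.63 and 10.85 in Ppara-/- livers, against 10.68, 10.83 and 10.93 in Ppara+/+ livers, a difference of -0.20 (interval -0.38 to -0.03, limma adjusted p = 0.17), and 3 Ppara-/- livers lay below every Ppara+/+ liver. Nsdhl averaged 10.80 in both genotypes (interval -0.20 to 0.20). Hsd17b7 varied more within genotypes than 99.2% of all genes. Ppara-/- mouse 1 stood at 9.46, while the other Ppara-/- livers ranged from 10.37 to 11.00 and the Ppara+/+ livers from 10.55 to 10.76. The difference of Hsd17b7 was -0.18 (interval -0.59 to 0.23), and turned to 0.03 without that mouse.

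Among the enzymes that reduce or shift double bonds, Lbr and Tm7sf2, which share the sterol C14-reductase step, differed by 0.13 (interval 0.00 to 0.26, limma adjusted p = 0.24) and 0.05 (interval -0.12 to 0.22). Ebp, the isomerase, differed by 0.13 (interval -0.03 to 0.29), with signals of 10.30 to 10.68 in Ppara-/- livers and 10.22 to 10.66 in Ppara+/+ livers. Sc5d, the desaturase, differed by -0.09 (interval -0.23 to 0.05). Dhcr7, which reduces 7-dehydrocholesterol, had signals of 9.57 to 10.18 in Ppara-/- livers and 9.58 to 10.08 in Ppara+/+ livers, a difference of 0.07 (interval -0.16 to 0.29). In each of these genes the genotypes overlapped.

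Promoters of 24 of the 30 genes were found in the RefSeq table of assembly GRCm38.p6, as windows of 250 bases before and 50 bases after the annotated start. The 3 shown here are examples from the 4 synthesis genes that were lower in Ppara-/- livers at an unadjusted p under 0.05 without being called (the other is Mvd, whose window also holds CCAAT), with matches to CCAAT (read as ATTGG on the opposite strand), the letters bound by the factor NF-Y, in capitals. In Hmgcs1 the match to TCACNCCAC, a sterol regulatory element, is also in capitals. They lie at chr13:119690101-119690400 (plus strand), chr8:64733529-64733828 (minus strand) and chr13:8885356-8885655 (plus strand).
Hmgcs1: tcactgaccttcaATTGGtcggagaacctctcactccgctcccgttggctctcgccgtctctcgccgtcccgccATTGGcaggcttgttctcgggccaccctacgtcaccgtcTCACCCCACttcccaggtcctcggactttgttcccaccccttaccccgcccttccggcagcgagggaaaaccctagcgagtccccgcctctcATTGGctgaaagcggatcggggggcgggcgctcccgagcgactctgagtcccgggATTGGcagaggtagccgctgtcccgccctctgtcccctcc
Msmo1: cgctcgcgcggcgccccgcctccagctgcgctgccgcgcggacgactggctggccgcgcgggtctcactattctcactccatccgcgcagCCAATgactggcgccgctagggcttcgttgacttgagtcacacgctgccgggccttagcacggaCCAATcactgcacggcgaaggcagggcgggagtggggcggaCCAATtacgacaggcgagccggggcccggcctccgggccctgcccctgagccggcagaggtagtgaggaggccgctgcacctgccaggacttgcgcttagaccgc
Idi1: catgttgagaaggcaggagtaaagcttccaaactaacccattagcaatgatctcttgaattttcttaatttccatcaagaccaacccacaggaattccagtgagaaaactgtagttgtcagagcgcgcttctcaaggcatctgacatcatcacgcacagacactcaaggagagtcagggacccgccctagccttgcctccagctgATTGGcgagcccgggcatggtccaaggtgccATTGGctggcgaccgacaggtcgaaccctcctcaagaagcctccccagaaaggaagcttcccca

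In the Hmgcs1 window the match to TCACNCCAC began 137 bases before the start, and the 4 CCAAT matches included 1 after the start. Msmo1 held 3 CCAAT matches, the nearest 55 bases before the start, and Idi1 held 2. No capitalised matches overlapped. Searched on both strands, CCAAT was present in 22 of the 24 windows, and in all 15 of the synthesis genes with a window, against 41.1% of 27025 genes with a window. The GC box GGGCGG was present in 20 of 24, against 38.2% of all genes. The E-box CACGTG was present in 6 of 24, against 8.09%, and TCACNCCAC in 1 of 24, against 1.44%. Windows without TCACNCCAC may hold sterol regulatory elements that depart from these letters. A direct repeat of AGGTCA spaced by 1 base, the form bound by PPARα with its partner RXR, was searched as exact letters. It was found in 0 of 24 windows and in 13 of the 27025 genes (0.0481%), too few for its absence to say whether less exact sites are present. These matches are a description of the windows, which were not matched for base composition.

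Ppara-/- mouse 1 stood apart in the synthesis genes. It was the lowest of the 6 Ppara-/- livers in 13 of 18 of them, and the lowest of all 12 livers in 8, whereas over all 19938 genes it was the lowest Ppara-/- liver in 4531 and the lowest of all in 1567. Averaged over the 18 genes, its signal lay at -0.26 relative to the mean of the Ppara+/+ livers, while the other Ppara-/- livers lay between -0.01 and 0.13. Among Ppara+/+ livers the same average ran from -0.13 in mouse 4 to 0.10 in mouse 3. Mouse 1 had a mean hepatocyte marker signal of 13.34, against 13.31 to 13.33 in the other Ppara-/- livers, and a mean erythroid marker signal of 11.41, against 11.29 to 11.45. The hepatocyte markers lay too near the top of the arrays' scale to show equal hepatocyte content. The Ppara signal of mouse 1 was 9.84, within the 9.66 to 9.94 of its genotype. Without it, genes that remained uncalled moved too, Dhcr7 to 0.15, Tm7sf2 to 0.10, Cyp51 to -0.08, Sqle to -0.02, Nsdhl to 0.06 and Fdft1 to 0.03. Without Ppara+/+ mouse 6, Sqle was -0.10 and Tm7sf2 0.09, neither called.

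**Figure D2:**
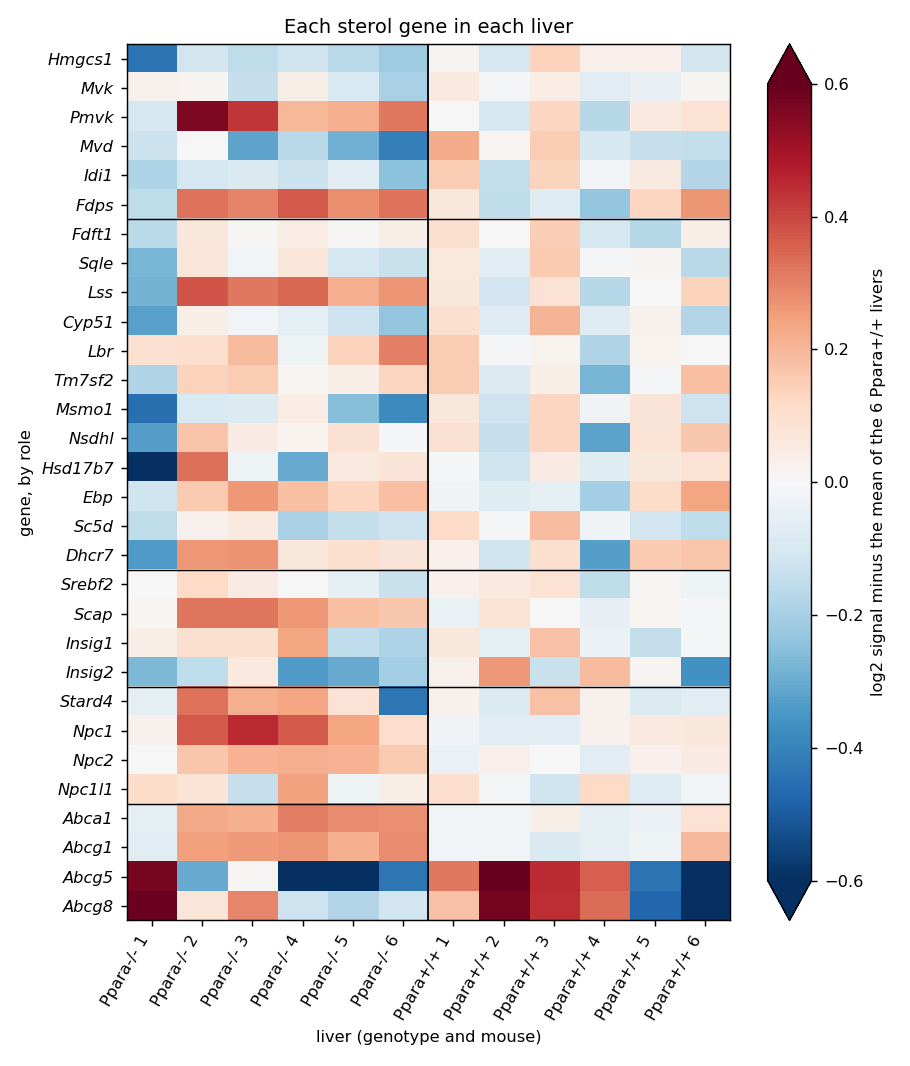
Signal of each of the 30 sterol genes (y axis, by role) in each of the 12 livers (x axis, 6 Ppara-/- left of 6 Ppara+/+), as the log2 signal minus the mean of the 6 Ppara+/+ livers. Colours saturate beyond 0.6 in either direction. Ppara-/- mouse 1 is low across most synthesis genes, and Abcg5 and Abcg8 form a pattern of their own across both genotypes.

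Of the 4 genes that control synthesis, Scap rose and the rest were not called. SCAP escorts SREBPs to the Golgi for activation, and INSIG proteins hold it back when sterols are plentiful. Scap had a lowest, median and highest signal of 10.20, 10.41 and 10.51 in Ppara-/- livers, against 10.14, 10.18 and 10.27 in Ppara+/+ livers. All Ppara-/- livers but mouse 1 lay above every Ppara+/+ liver. Means were 10.40 ± 0.12 in Ppara-/- livers and 10.19 ± 0.05 in Ppara+/+ livers (SD, n = 6 each), a difference of 0.21 (interval 0.09 to 0.33, 1.16-fold, limma adjusted p = 0.034), and 0.25 without mouse 1. Within the 6 lowest animal numbers Scap differed by 0.17, and within the 6 highest by 0.23.

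Srebf2 averaged 9.52 in both genotypes, with signals of 9.39 to 9.64 in Ppara-/- livers and 9.37 to 9.61 in Ppara+/+ livers and an interval of -0.12 to 0.11. Insig1, itself a target of SREBPs, differed by 0.02 (interval -0.14 to 0.18), with signals of 11.87 to 12.29 in Ppara-/- livers and 11.91 to 12.23 in Ppara+/+ livers. Insig2 had 9.87, 9.97 and 10.27 in Ppara-/- livers, against 9.85, 10.23 and 10.47 in Ppara+/+ livers. The difference of -0.20 had an interval of -0.41 to 0.00 (limma adjusted p = 0.25). Leaving out Ppara+/+ mouse 6, the lowest of its genotype, made it -0.27 and called.

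Genes that move cholesterol between membranes were represented by Npc1, Npc2, Stard4 and Npc1l1. NPC2 and NPC1 hand cholesterol out of lysosomes in turn. Npc1 had a lowest, median and highest signal of 10.63, 10.91 and 11.05 in Ppara-/- livers, against 10.54, 10.60 and 10.67 in Ppara+/+ livers. Mouse 1 alone among the Ppara-/- livers fell within the range of Ppara+/+ livers. Npc1 rose to a mean of 10.86 ± 0.17 in Ppara-/- livers, against 10.60 ± 0.06 in Ppara+/+ livers (SD, n = 6 each), a difference of 0.26 (interval 0.11 to 0.41, 1.20-fold, limma adjusted p = 0.033). The difference was 0.31 without mouse 1 and 0.23 within both the 6 lowest and the 6 highest animal numbers.

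Npc2 behaved alike in the livers but stood just outside the threshold. It had 9.27, 9.46 and 9.49 in Ppara-/- livers, against 9.21, 9.29 and 9.32 in Ppara+/+ livers, a difference of 0.16 (interval 0.06 to 0.26, limma adjusted p = 0.0503). Of the Ppara-/- livers, mouse 1 lay within the Ppara+/+ range and the other 5 above it. Without Ppara-/- mouse 1 it was 0.19 and called (limma adjusted p = 0.0055), as it was without Ppara+/+ mouse 6 at 0.17 (limma adjusted p = 0.046). Stard4, a soluble carrier of cholesterol, differed by 0.07 (interval -0.16 to 0.29), with the lowest of all livers, 9.51, in Ppara-/- mouse 6. Npc1l1, which takes up sterols in intestine, had signals of 6.14 to 6.52 in Ppara-/- livers and 6.16 to 6.40 in Ppara+/+ livers, all below the medians of the arrays, and a difference of 0.05 (interval -0.09 to 0.19).

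Of the 4 exporters, Abca1 rose. ABCA1 loads cholesterol onto apolipoprotein A-I and ABCG1 onto formed HDL, and both genes are targets of liver X receptors. Abca1 had a lowest, median and highest signal of 11.10, 11.40 and 11.46 in Ppara-/- livers, against 11.10, 11.14 and 11.24 in Ppara+/+ livers. The 5 Ppara-/- livers other than mouse 1 were at 11.37 or more, above every Ppara+/+ liver. Means were 11.36 ± 0.13 in Ppara-/- livers and 11.16 ± 0.05 in Ppara+/+ livers (SD, n = 6 each), a difference of 0.21 (interval 0.08 to 0.33, 1.15-fold, limma adjusted p = 0.046), and 0.26 without mouse 1. Within the 6 lowest animal numbers it was 0.10, and within the 6 highest 0.24.

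Abcg1 had 8.81, 9.13 and 9.16 in Ppara-/- livers, against 8.79, 8.85 and 9.07 in Ppara+/+ livers. The lowest Ppara-/- liver was mouse 1, and the highest Ppara+/+ liver was mouse 6, which stood apart from the next at 8.86. The difference of 0.20 was not called (interval 0.06 to 0.34, limma adjusted p = 0.086). Without Ppara-/- mouse 1 it was 0.25 and called (limma adjusted p = 0.0057), as it was without Ppara+/+ mouse 6 at 0.24 (limma adjusted p = 0.027). In the same 5 Ppara-/- livers, all but mouse 1, Scap, Npc1, Npc2, Abca1 and Abcg1 each lay above every Ppara+/+ liver. So did Pmvk, Fdps and Lss. The share of all genes with this pattern was not counted, and mouse 1 also lay apart on the first principal component of all genes.

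**Figure D3:**
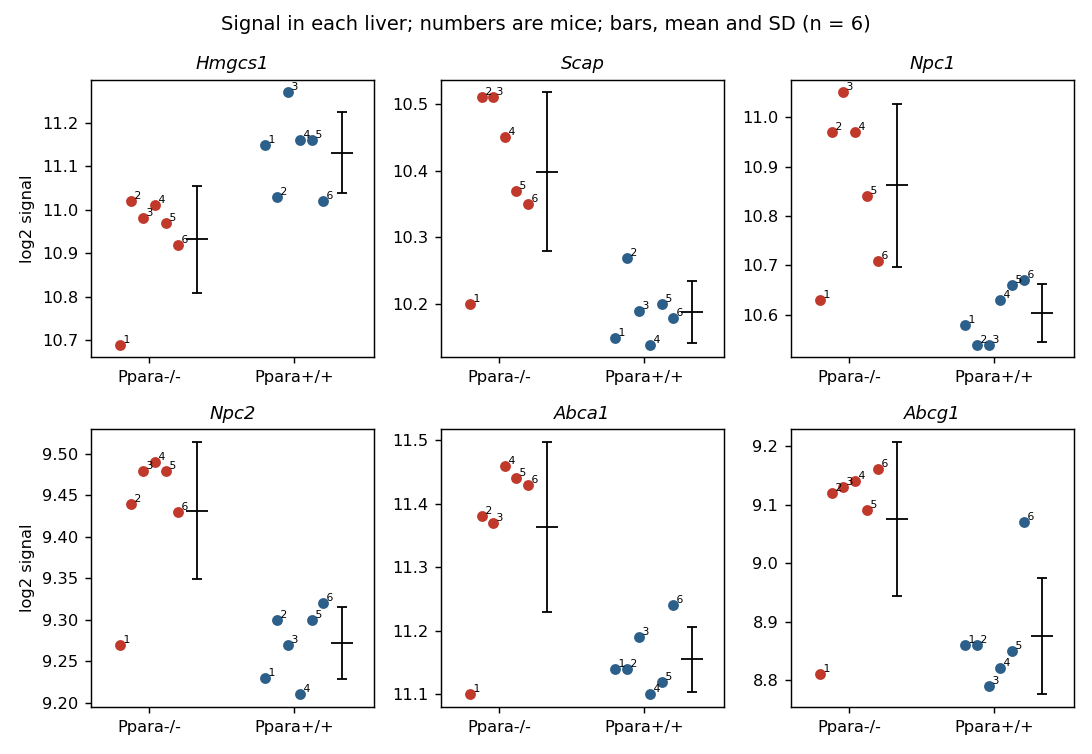
Log2 signal (y axis) of 6 genes in each liver, with the 6 Ppara-/- livers left of the 6 Ppara+/+ livers, the mouse number beside each point, and bars for the mean and SD (n = 6). Ppara-/- mouse 1 is the lowest Ppara-/- liver in all 6 panels, and the other 5 lie above every Ppara+/+ liver in all panels but that of Hmgcs1.

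Each of these 3 calls was close to the threshold. Leaving out Ppara-/- mouse 1 or Ppara+/+ mouse 6 kept all 3, whereas leaving out any other liver ended at least 2 of them, with adjusted p of at most 0.11. Of 27 alternative settings, 13 ended the call of Scap, 14 that of Npc1 and 16 that of Abca1, with no change of sign (adjusted p from 0.0012 to 0.71 over the 3 genes and all alternatives). The exact Mann-Whitney test, counted among them, cannot give a p below 0.0022 with 6 livers per genotype, and called no gene at all, Ppara included (adjusted p = 0.06). Macrophages also express Abca1, Abcg1, Npc1 and Npc2. Of 10 macrophage markers measured, 2 were called higher in Ppara-/- livers, Csf1r and Cd5l, of which Cd5l was named after its value was seen. Over all genes, 3.42% were called higher. The mean signal of the 10 markers was 9.11 to 9.29 in Ppara-/- livers and 9.07 to 9.18 in Ppara+/+ livers. The brightest, C1qb, averaged 10.73 in Ppara-/- livers and 10.68 in Ppara+/+ livers, and Csf1r 10.37 and 10.14. The median difference was 0.07 for macrophage, 0.07 for erythroid and 0.08 for granulocyte markers. No erythroid or granulocyte marker was called, and of 8 stellate and fibroblast markers 1 was called higher and 1 lower. The part of macrophages in the result was not tested.

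The direct repeat of AGGTCA spaced by 4 bases, the form bound by liver X receptors with RXR, was searched as exact letters. It was found in 0 of the 24 promoter windows and in 4 of 27025 genes with a window (0.0148%). With so few exact matches anywhere, this search cannot tell whether a window holds a site that departs from these letters. Abcg5 and Abcg8 lie side by side and are transcribed away from each other, and their windows (chr17:84682962-84683261, minus strand, for Abcg5, and chr17:84682871-84683170, plus strand, for Abcg8) overlapped by 209 bases. Abcg8 had 2 annotated windows, and only the window with these coordinates was used for the overlap. That window is shown for this stretch, which makes up its last 209 bases. Of its 2 matches to CCAAT, in capitals, that beginning 114 bases before the start of Abcg8 lies in the shared stretch, and that beginning 175 bases before it does not.
Abcg8: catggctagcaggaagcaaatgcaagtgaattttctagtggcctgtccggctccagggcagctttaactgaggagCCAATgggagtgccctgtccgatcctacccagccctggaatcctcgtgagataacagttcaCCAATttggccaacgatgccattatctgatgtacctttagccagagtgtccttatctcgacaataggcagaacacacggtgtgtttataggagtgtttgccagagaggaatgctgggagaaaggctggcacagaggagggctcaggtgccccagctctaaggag

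ABCG5 and ABCG8 form 1 transporter, which exports sterols into bile. Their genes varied within genotypes more than 99.8% and 99.6% of all genes. Abcg5 had a lowest, median and highest signal of 7.80, 8.18 and 9.11 in Ppara-/- livers, against 7.23, 8.88 and 9.17 in Ppara+/+ livers, so the range of Ppara+/+ livers enclosed that of Ppara-/- livers. Abcg8 had 8.01, 8.16 and 8.78 in Ppara-/- livers, against 7.13, 8.44 and 8.76 in Ppara+/+ livers. The differences were -0.26 for Abcg5 (interval -0.91 to 0.39, limma adjusted p = 0.71) and 0.09 for Abcg8 (interval -0.43 to 0.60, limma adjusted p = 0.90). The intervals leave the direction undecided for both genes. Leaving out 1 liver moved these values widely, as Abcg5 was -0.43 without Ppara-/- mouse 1, -0.52 without Ppara+/+ mouse 6 and -0.13 without Ppara+/+ mouse 2, and Abcg8 was -0.01, -0.12 and 0.20 without the same livers, with none called.

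Both genes ordered the livers alike, and the rank of a liver among the 12 differed between them by at most 2. Ppara-/- mouse 1, low in so many other sterol genes, ranked 11 for Abcg5 and 12 for Abcg8, and Ppara+/+ mouse 6 ranked 1 for both. Along the animal number, Abcg5 had 7.23 to 8.55 in the 6 highest numbers, against 8.24 to 9.17 in the 6 lowest, a difference of means of -0.94. Abcg8 had 7.13 to 8.48 in the 6 highest numbers, against 8.26 to 8.78 in the 6 lowest (-0.64). Within the 6 lowest numbers Abcg5 differed by -0.30 between Ppara-/- and Ppara+/+ livers, and within the 6 highest by 0.42, while Abcg8 differed by -0.05 and 0.73. The labels do not say what the animal number stands for beyond the fetus, and its part in the result was not tested.

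**Figure D4:**
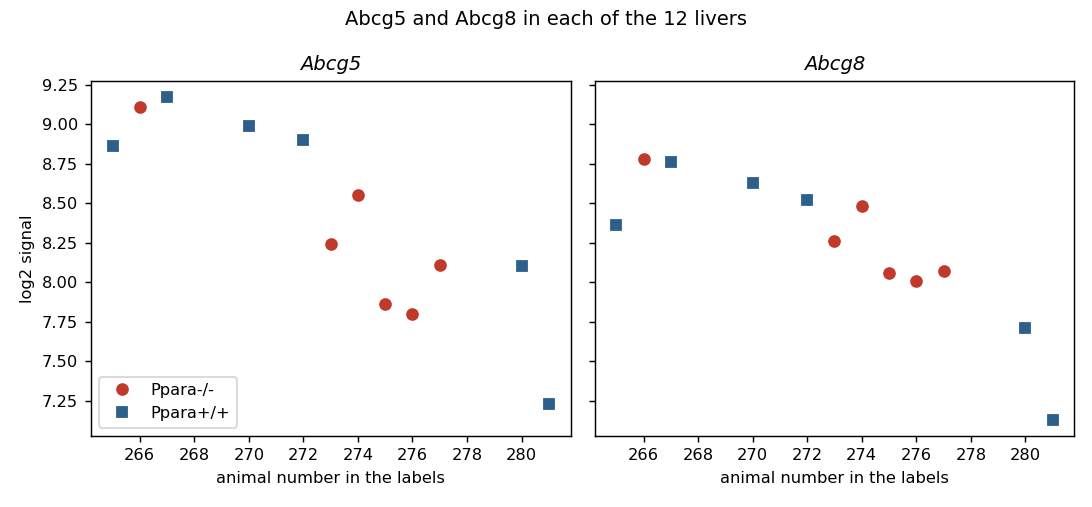
Log2 signal (y axis) of Abcg5 and Abcg8 in each of the 12 livers against the animal number in the labels (x axis), with Ppara-/- livers as circles and Ppara+/+ livers as squares. The 6 lowest numbers lie at 8.24 to 9.17 for Abcg5 and 8.26 to 8.78 for Abcg8, and both genes are lowest, at 7.23 and 7.13, in Ppara+/+ mouse 6, which has the highest number.

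A further 30 genes of sterol uptake, lipoprotein exchange, ester turnover and oxysterol synthesis were listed, and 22 were measured. Of these, 2 fell in Ppara-/- livers and 0 rose, and the median difference of the 22 was 0.01. Over all genes, 3.82% were called lower and 3.42% higher. Without adjustment, 10 of the 22 had a limma p under 0.05, 6 lower and 4 higher, against 20.9% of all genes. With the dimmest 50% of genes left out it was 9 of 21, against 3450 of 9969 genes. Nr1h3, which encodes liver X receptor alpha, had a lowest, median and highest signal of 8.32, 8.45 and 8.71 in Ppara-/- livers, against 8.58, 8.85 and 9.09 in Ppara+/+ livers. Mouse 1 was the highest Ppara-/- liver and the 5 others lay below every Ppara+/+ liver. The difference was -0.34 (interval -0.54 to -0.15, 1.27-fold lower, limma adjusted p = 0.033), and -0.39 without mouse 1.

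Pltp, which encodes phospholipid transfer protein of plasma, fell as well, with 8.19, 8.35 and 8.45 in Ppara-/- livers, against 8.43, 8.55 and 8.73 in Ppara+/+ livers (difference -0.22, interval -0.35 to -0.10, limma adjusted p = 0.033). In a fit with fetal sex as a covariate neither gene was called (Nr1h3 -0.27, limma adjusted p = 0.092, and Pltp -0.19, limma adjusted p = 0.10). The 3 uncalled genes with the lowest p were Scarb1, the HDL receptor, at 0.15 (limma adjusted p = 0.061), Cyp27a1, which makes an oxysterol, at 0.19 (limma adjusted p = 0.069), and Nceh1, a cholesteryl ester hydrolase, at -0.32 (limma adjusted p = 0.078). Without Ppara-/- mouse 1, Cyp27a1 was 0.20 and Nceh1 -0.22, both called (limma adjusted p = 0.048 and 0.043). In 1 of the 22, Ch25h, named after its values were seen, every Ppara-/- liver lay above every Ppara+/+ liver (4.95 to 5.68 against 4.71 to 4.95), as in 1.30% of all genes. Its mean signal lay at percentile 18.5 of all genes and it was not called (limma adjusted p = 0.10).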

How the data were processed

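Livers of 12 fetuses, 6 Ppara-/- and 6 Ppara+/+, were each hybridized to 1 Affymetrix Mouse Gene 1.0 ST array, from RNA with an integrity number above 8. The deposited log2 values came from RMA, run by the authors, which subtracts background, brings arrays to a common distribution and combines the probes of a probeset. Its version and the genome build were not given in the sources used here. Of 35556 probesets, 21789 named 1 gene, 1621 several and 12146 none. Each gene was read from its single-gene probeset of highest mean, which left 19938 genes.

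Groups follow the genotype in the labels. Differences are Ppara-/- minus Ppara+/+ over all 12 arrays, from limma 3.58.1 in R 4.3.3 (lmFit, eBayes, two-sided, no covariates), with Benjamini-Hochberg adjustment over all genes and a threshold of 0.05. Python 3.11.15 was used with pandas 2.3.3, and figures were drawn in matplotlib 3.10.9. Fetal sex was scored from Xist and 3 Y-linked genes. Arrays have no read depth, and their number limits the precision. The scripts were tested on simulated data. Changes of 0.2 were called in 15 of 67 genes (22.4%), of 0.5 in 58 of 67 and of 1 in 64 of 66. A gene that was not called may thus still differ by about 0.2. The members and all gene lists were chosen with earlier results of these data known, so no test was run on a list. Named were Ppara, all members, the other sterol genes called and the 3 uncalled with the smallest p, and up to 2 of the brightest markers per list. Alternatives covered normalization, signal filters, probeset choice, variance models, sex, animal number, mouse number, a rank test and each liver left out.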

Additional observations from a re-analysis of the deposited data

Results flagged for a closer look

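In 36 genes, the 30 sterol genes, 5 further sterol pathway genes and Ppara, the highest and lowest liver of each genotype was compared with its neighbour. In 11 of 72 groups of 6 livers the gap exceeded the critical value, where chance gives about 1 in 20 for independent groups. The genes were measured in the same 12 livers, so these groups were not independent. In 10 of the 11 the liver was Ppara-/- mouse 1, lowest of its genotype. It lay at 10.69 for Hmgcs1 (next liver 10.92), 10.72 for Fdps (11.15), 11.69 for Fdft1 (11.86), 10.53 for Lss (11.03) and 10.47 for Nsdhl (10.79). It also lay at 10.30 for Ebp (next liver 10.55), 9.57 for Dhcr7 (9.98), 9.27 for Npc2 (9.43), 11.10 for Abca1 (11.37) and 8.81 for Abcg1 (9.09). The other was Abcg1 in Ppara+/+ mouse 6, at 9.07 against 8.86 in the next liver. Without Ppara-/- mouse 1, 8 sterol genes were called, all higher in Ppara-/- livers (limma adjusted p): Abca1, Abcg1, Fdps, Lss, Npc1, Npc2, Pmvk and Scap. Calls also increased over all 19938 genes, to 1374 higher and 1147 lower, against 682 and 761 with all 12 livers. The cause of the low values in this liver was not tested.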

How the results depend on the processing

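Among 27 alternatives for each member (26 for Npc1l1, which low-signal filtering removed once), 694 of 809 differences kept direction and side of the threshold, 43 lost and 25 gained a call, and 47 in 12 members changed sign, none of them called. Counts of sterol genes called, 3 in the result as reported, were 5 and 6 with the dimmest 25% and 50% of genes left out, 5 with an intensity trend and robust variances, 8 with array weights (in each of these 1 lower, Hmgcs1), 1 with the fetal sex score as a covariate, and 0 with the animal number as a block of 2 levels (the 6 lowest and the 6 highest), within either level, and by the exact Mann-Whitney test, where 9 had an unadjusted p under 0.05, but no p can fall below 0.0022 and Ppara itself had an adjusted p of 0.06. The other sterol genes, 2 as reported, numbered 4 after renewed quantile normalization, 4 and 6 under the filters, 5 with trend and robust variances, 6 with array weights, 0 with the sex score, 4 with animal number, 1 with both or with the 2-level block, and 0 within either level or by Mann-Whitney. All genes called, 1443 as reported, numbered 1757 of 14953 and 2012 of 9969 under the filters, beside 5 of 30 and 6 of 29 sterol genes. They numbered 1746 with trend and robust variances, 2743 with array weights, 850 with the sex score and 936 with the 2-level block. Within the lowest numbers 193 genes were called, within the highest 223, and 0 by Mann-Whitney. With 1 liver left out in turn, calls ranged from 0 to 8 for the sterol genes, 0 to 7 for the others and 851 to 2521 over all genes, highest without Ppara-/- mouse 1. The fit with sex score and animal number together was added after seeing the data.

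The labels do not say that the mouse number pairs livers. Deviations of same-numbered livers correlated at 0.02 to 0.39, over 0.1 in 4 of 6 pairs, and 3 of 6 livers matched their own number best, a hint from the data and not from the design. With the number as a replicate block, Scap remained called, Npc1 and Abca1 were not (limma adjusted p = 0.053 and 0.052), 1 of the 30 sterol genes being called, and 4 of the other sterol genes were called.

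Within the 6 highest animal numbers Fdft1 was 0.09, Sqle 0.028, Tm7sf2 -0.00082, Sc5d 0.034, Dhcr7 -0.04 and Abcg5 0.42. Within the 6 lowest Mvk was 0.017, Srebf2 0.051 and Abcg8 -0.052. With the 2-level block Fdft1 was 0.0011, Dhcr7 -0.001, Srebf2 0.013 and Abcg5 0.059. With array weights Fdft1 was 0.018, Nsdhl 0.055, Insig1 -0.014 and Abcg8 -0.054. Renewed quantile normalization gave 0.0088 for Nsdhl and 0.0061 for Srebf2, and the mean of probesets 0.0094 for Fdft1. The sex score gave 0.014 for Fdft1 and 0.013 for Srebf2, with animal number 0.013 and 0.012, and animal number alone 0.0007 for Srebf2. With 1 liver left out, Abcg8 ranged from -0.12 to 0.20, Fdft1 from -0.038 to 0.03, Hsd17b7 from -0.28 to 0.027, Insig1 from -0.021 to 0.063, Nsdhl from -0.066 to 0.064, Srebf2 from -0.035 to 0.022 and Tm7sf2 from -0.0077 to 0.10. The causes were not tested.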
